A study of Mus musculus with 6 samples.

Results

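Small leucine-rich proteoglycans are secreted matrix proteins whose core is built of leucine-rich repeats. Their expression was examined in C2C12 cells, mouse myoblasts that form myotubes when serum is lowered. The 9 genes *Dcn*, *Bgn*, *Aspn*, *Fmod*, *Lum*, *Prelp*, *Omd*, *Ogn* and *Podn* were found by symbol among the 55401 genes of the count matrix, and all 9 were among the 17310 genes tested. Control cells, labelled wild type, were mock cells that received the Cas9 and ZsGreen plasmid with a guide without a target in the mouse genome. *Phf2* KO cells received a pool of 4 such plasmids with guides to exons of *Phf2*, a histone demethylase gene. Both groups carried Cas9 by transfection, were sorted for ZsGreen, were expanded without single-cell cloning and were harvested 2 d post differentiation in DMEM with 2% horse serum. The data comprised 3 libraries of polyadenylated RNA from each group, given as wells of 1 experiment. Since each group came from 1 pool of sorted cells, pool differences, Cas9 cutting itself and the loss of *Phf2* cannot be told apart, and the p-values measure only the spread between wells.

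Members of this family bind collagen fibrils and regulate their assembly, and several of them bind growth factors of the TGF-β family. They are grouped by sequence into classes. *Dcn* (decorin), *Bgn* (biglycan) and *Aspn* (asporin) belong to class I, *Fmod* (fibromodulin), *Lum* (lumican), *Prelp* and *Omd* (osteomodulin) to class II, *Ogn* (osteoglycin, also called mimecan) to class III and *Podn* (podocan) to class V. Decorin and biglycan carry chondroitin or dermatan sulfate chains, whereas several class II members carry keratan sulfate. In muscle these proteins are part of the matrix around fibers, and decorin binds myostatin.

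Of the 9 genes, only *Aspn* passed the threshold (adjusted p under 0.05), and it was higher in *Phf2* KO cells by a factor of 1.29. *Ogn*, *Dcn*, *Bgn* and *Fmod* were higher in the mean of *Phf2* KO cells without passing it, and *Omd*, *Prelp*, *Lum* and *Podn* gave estimates whose intervals included 0. The 1 member called higher compares with 3.22% of all genes tested, and 0 members were called lower, compared with 3.26%. The median log2 fold change (*Phf2* KO over control) of the 9 genes was 0.13, and that of all genes tested was -0.001. With the replicate number as a block, *Ogn* (adjusted p = 0.0344) and *Dcn* (0.0331) also passed, where 3.74% of all genes tested were called higher.

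Total estimated counts were between 52526109 and 67502788 in the 6 libraries, and the scaling factors stayed between 0.9954 and 1.0041. These counts are StringTie estimates, not tallies of reads. Over single-transcript genes with 500 or more counts, the libraries had medians of 74.98 to 74.99 covered bases per count, so 1 sequenced fragment can add several counts. *Phf2* itself, the targeted gene, averaged 100.8 ± 4.73 CPM in the controls and 39.1 ± 1.78 CPM after knockout (SD, n = 3 each). CPM is the estimated count scaled to equal library size after TMM scaling. The log2 fold change of *Phf2* RNA was -1.37 (SE 0.055, adjusted p = 8.32e-09). This is not a measure of the protein, which the paper reports as nearly absent in the knockout myoblasts. Of the 17310 genes tested, 557 were called higher and 565 lower in *Phf2* KO cells. Markers of myotubes moved with the groups: the summed TPM of 12 such genes was 8612.5 to 10157 in control libraries and 6674.7 to 7465.5 in *Phf2* KO libraries. The largest parts of this sum were *Acta1* and *Actc1* (control means of 3725 and 1601 TPM). Both were lower without passing the threshold (adjusted p = 0.117 and 0.215). In bulk RNA, fewer cells of a type and less RNA per cell cannot be told apart.

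The genes lie in clusters on the mm10 (GRCm38) assembly. *Aspn* (ENSMUSG00000021388, 49544443 to 49567565), *Omd* (ENSMUSG00000048368, 49582462 to 49592822) and *Ogn* (ENSMUSG00000021390, 49608046 to 49624501) follow each other on the plus strand of chromosome 13. *Dcn* (ENSMUSG00000019929, 97479609 to 97518143) and *Lum* (ENSMUSG00000036446, 97565128 to 97572703) lie on the plus strand of chromosome 10. *Prelp* (ENSMUSG00000041577, 133910304 to 133921414, minus strand) and *Fmod* (ENSMUSG00000041559, 134037254 to 134048277, plus strand) are neighbours on chromosome 1. *Bgn* (ENSMUSG00000031375) stands alone on the X chromosome from 73483602 to 73495933, plus strand. *Podn* (ENSMUSG00000028600) occupies 108014791 to 108096445 of chromosome 4, minus strand.

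The promoter windows of the chromosome 13 genes are shown because these neighbours are transcribed in the same direction and include *Aspn*, the member called. Each window runs from 250 bases before the RefSeq start (GRCm38.p6) to 50 bases after it, 5′ to 3′ on the plus strand. Capitals mark matches on either strand to the E-box CANNTG, which myogenic factors such as MyoD bind. They also mark matches to TATAAA, the letters of a TATA box. The windows are chr13:49544193-49544492 for *Aspn*, chr13:49582212-49582511 for *Omd* and chr13:49607765-49608064 for *Ogn*.
Aspn: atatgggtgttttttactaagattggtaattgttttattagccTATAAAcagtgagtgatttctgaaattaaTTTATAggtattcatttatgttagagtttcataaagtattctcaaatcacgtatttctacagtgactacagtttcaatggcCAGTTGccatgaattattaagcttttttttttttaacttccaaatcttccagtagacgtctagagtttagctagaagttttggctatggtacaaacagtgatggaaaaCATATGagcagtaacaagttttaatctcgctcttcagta
Omd: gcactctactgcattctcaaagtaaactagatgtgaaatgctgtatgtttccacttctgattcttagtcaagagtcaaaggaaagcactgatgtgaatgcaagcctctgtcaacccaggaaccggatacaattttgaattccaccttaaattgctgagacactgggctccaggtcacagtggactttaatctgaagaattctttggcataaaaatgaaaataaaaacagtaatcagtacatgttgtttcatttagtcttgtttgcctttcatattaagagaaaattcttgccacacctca
Ogn: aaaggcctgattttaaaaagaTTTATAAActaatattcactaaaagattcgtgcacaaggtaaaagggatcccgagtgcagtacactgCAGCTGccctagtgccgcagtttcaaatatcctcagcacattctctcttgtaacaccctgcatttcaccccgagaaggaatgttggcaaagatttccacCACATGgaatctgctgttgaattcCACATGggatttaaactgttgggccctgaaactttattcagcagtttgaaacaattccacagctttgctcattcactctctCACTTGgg
The *Aspn* window held 2 E-box and 2 TATAAA matches. The *Omd* window held neither. The *Ogn* window held 4 E-box matches and 2 TATAAA matches that overlap each other on opposite strands. The GC content was 31.0% for *Aspn*, 37.7% for *Omd* and 42.3% for *Ogn*, and the median of all 32851 windows was 52.7%. An E-box match was present in 72.3% of all windows and a TATAAA match in 13.6%. Among the 7 members with a window, none held a match to the AP-1 site TGANTCA, which 7.8% of all windows held. These matches are letters only. Neither binding nor use of TATAAA as a TATA box was tested.

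Levels were first compared between genes per transcript length, in TPM. *Bgn* was the most abundant member, at 3437 ± 91.4 TPM (SD, n = 3) in control cells and 3687 ± 115 TPM (SD, n = 3) in *Phf2* KO cells. By mean TPM over the 6 libraries it ranked 23 among all 55401 genes. *Ogn* followed with 1688 ± 72.3 and 1864 ± 76.8 TPM (rank 64), and *Dcn* with 598.1 ± 66.6 and 700.8 ± 35.5 TPM (rank 205). These 3 genes made up 57.8%, 28.4% and 10.1% of the members' mean TPM in control cells, and 56.7%, 28.7% and 10.8% in *Phf2* KO cells.

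*Aspn* stood next at 83.1 ± 2.50 TPM in control cells and 108.1 ± 3.28 TPM in *Phf2* KO cells (SD, n = 3 each). *Omd* (60.4 ± 12.4 and 59.1 ± 10.3 TPM) and *Prelp* (59.4 ± 15.2 and 60.5 ± 5.19 TPM) overlapped in both groups, so their order was not resolved. *Lum* was lower, at 9.80 ± 2.18 TPM in control cells and 8.51 ± 1.08 TPM in *Phf2* KO cells. *Fmod* stood below *Lum* in control cells (3.60 ± 1.79 TPM) and overlapped it in *Phf2* KO cells (6.64 ± 0.741 TPM). *Podn* is listed at 2.79 ± 0.052 and 3.19 ± 0.0966 TPM, but its estimated counts were 0, 10 and 11 in the control libraries and 16, 8 and 16 in the *Phf2* KO libraries. A listed TPM near that of *Fmod*, which had 177 to 468 estimated counts in control libraries, does not follow from these counts. Its listed coverage was 5.43 to 7.30 reads per base, also in control replicate 1, which had a count of 0. The place of *Podn* in the order was therefore not read. The summed TPM of the 9 genes was 5961, 5940 and 5927 in control libraries and 6633, 6362 and 6499 in *Phf2* KO libraries, a sum that is mostly *Bgn* and *Ogn*.

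**Figure D1:**
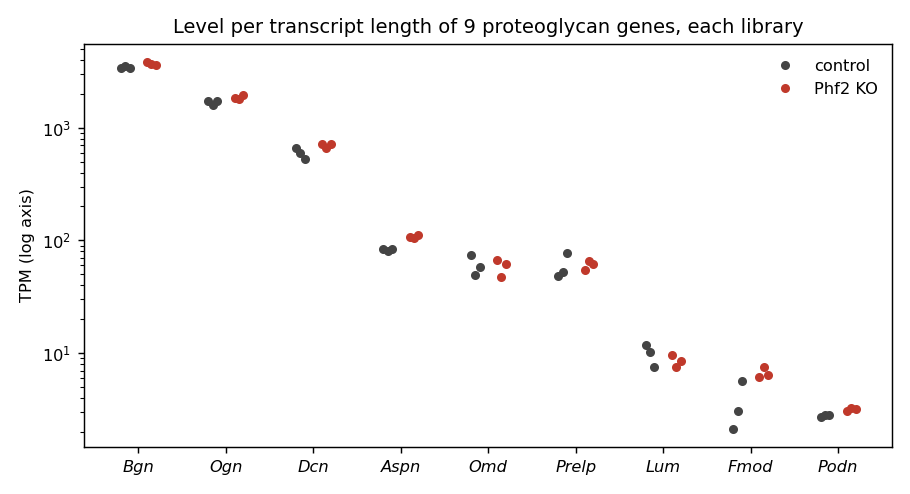
TPM of each member on a log axis in the 3 control and 3 *Phf2* KO libraries (grey and red points, 1 per library). *Bgn*, *Ogn* and *Dcn* stand apart at the top, with control means of 3437, 1688 and 598.1 TPM, and *Omd* and *Prelp* overlap.

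Among class I genes, *Aspn* encodes a collagen-binding protein that also binds TGF-β1. Its levels were 90.6, 86.4 and 89.9 CPM in control libraries and 117.1, 111.8 and 115.4 CPM in *Phf2* KO libraries, in each case in the order of replicates 1, 2 and 3, as for all genes described here. Every *Phf2* KO library lay above every control library, and the spread within each group was small. Its log2 fold change was 0.37 (SE 0.044, 95% interval 0.27 to 0.46, adjusted p = 2.11e-04). Between libraries of the same replicate number the log2 ratios were 0.37, 0.37 and 0.36. When single libraries were left out, the adjusted p of *Aspn* lay between 9.51e-04 and 0.00448. Its call is lost where a fold change of at least 1.5 is also required.

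*Dcn* encodes decorin, which carries 1 chondroitin or dermatan sulfate chain. Its levels were 544.1, 490.9 and 431.4 CPM in control libraries and 596.9, 536.7 and 568.0 CPM in *Phf2* KO libraries. Control replicate 1 lay above *Phf2* KO replicate 2, so the groups overlapped. For *Dcn* the log2 fold change was 0.21 (SE 0.082, 95% interval 0.02 to 0.41, adjusted p = 0.204). With the replicate number as a block its adjusted p was 0.0331. Leaving out control replicate 1 gave a log2 fold change of 0.30 (adjusted p = 0.0201), and leaving out control replicate 3 gave 0.13 (adjusted p = 0.232). With each other library left out the adjusted p of *Dcn* was up to 0.441.

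*Bgn* encodes biglycan, the close relative of decorin that also binds the dystrophin-associated complex at the muscle membrane. Its levels were 3738, 3978 and 3783 CPM in control libraries and 4295, 4088 and 3864 CPM in *Phf2* KO libraries. *Phf2* KO replicate 3 fell within the control range. For *Bgn* the log2 fold change was 0.09 (SE 0.040, 95% interval 0.01 to 0.18, adjusted p = 0.223). Without *Phf2* KO replicate 1 it was 0.05, and without *Phf2* KO replicate 3 it was 0.13 (adjusted p = 0.0565).

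*Ogn*, the class III gene, encodes a small protein found in bone and muscle matrix. Its levels were 2041, 1921 and 2060 CPM in control libraries and 2223, 2127 and 2241 CPM in *Phf2* KO libraries. The groups did not overlap, and the difference was small. The log2 fold change of *Ogn* was 0.13 (SE 0.037, 95% interval 0.05 to 0.21), and its adjusted p of 0.0504 lay just outside the threshold. With the replicate number as a block the adjusted p of *Ogn* was 0.0344. Without control replicate 3 it was 0.0309, and with each of the other libraries left out it was up to 0.285.

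**Figure D2:**
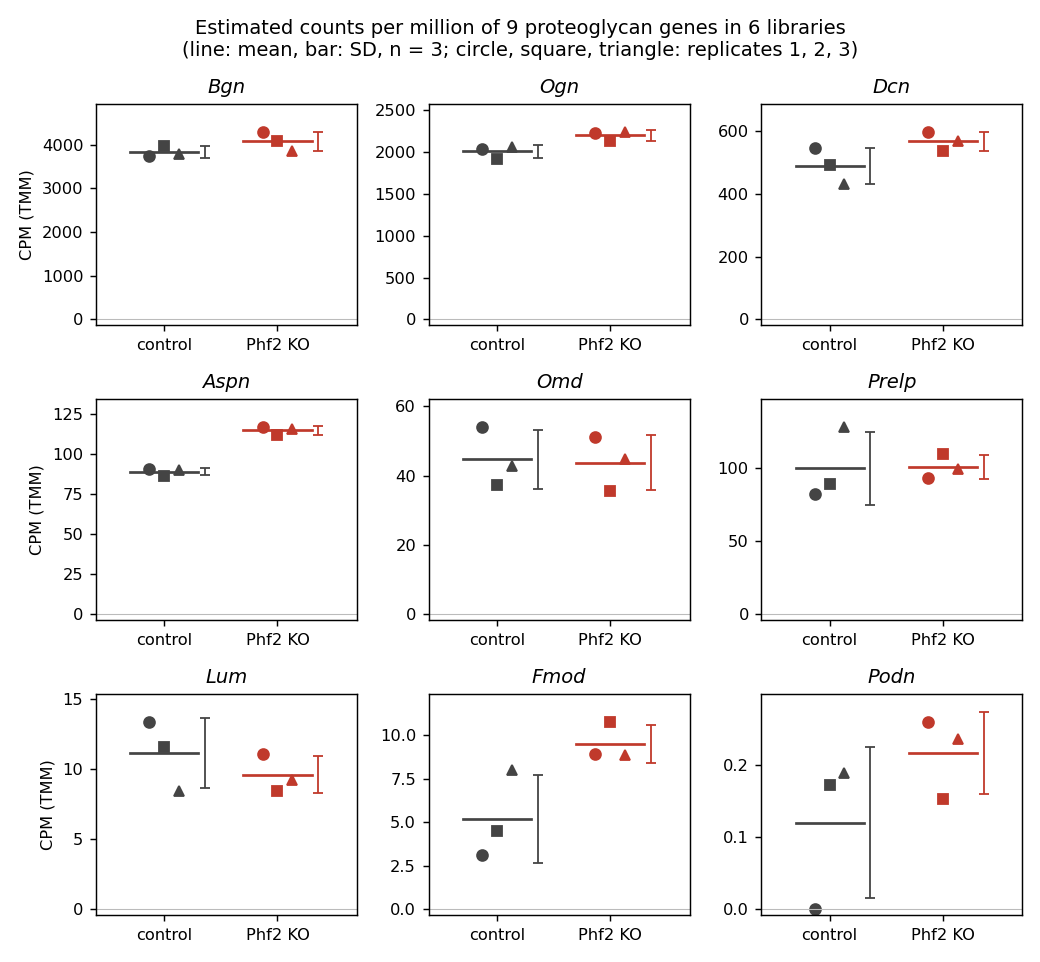
CPM of each member after TMM scaling, on linear axes, by library (circle, square and triangle for replicates 1, 2 and 3), with the mean and SD of each group (n = 3). The groups separate for *Aspn*, *Ogn* and *Fmod*, and overlap for the other 6 genes.

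Among class II genes, *Fmod* encodes fibromodulin, which binds collagen and takes part in its cross-linking. Its levels were 3.10, 4.48 and 8.04 CPM in control libraries and 8.94, 10.8 and 8.87 CPM in *Phf2* KO libraries. The groups did not overlap, but control replicate 3 came close to the *Phf2* KO libraries. The log2 fold change of *Fmod* was 0.87 (SE 0.34, 95% interval 0.04 to 1.697, adjusted p = 0.236), the largest of the 9 genes. Without control replicate 3 it was 1.33 with an adjusted p of 0.00115. With each other library left out the log2 fold change was as low as 0.60, and the adjusted p was 0.197 to 0.503. The log2 ratios of *Fmod* between libraries of the same number were 1.53, 1.27 and 0.14.

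*Prelp* encodes a basic, heparin-binding member of the family. Its levels were 81.8, 88.6 and 127.8 CPM in control libraries and 93.1, 109.1 and 99.2 CPM in *Phf2* KO libraries. Control replicate 3 was the highest of the 6. For *Prelp* the log2 fold change was 0.02 (SE 0.20, 95% interval -0.54 to 0.57, adjusted p = 0.985). Without control replicate 3 it was 0.24 with an adjusted p of 0.0626, and without control replicate 1 it was -0.11. An exon of *Prelp* overlaps the antisense gene *Gm15851*, which had a mean of 0.0081 CPM.

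*Omd* encodes osteomodulin, a keratan sulfate proteoglycan known from bone. Its levels were 54.1, 37.3 and 42.8 CPM in control libraries and 51.1, 35.5 and 44.8 CPM in *Phf2* KO libraries. Replicate 1 was the highest and replicate 2 the lowest in both groups, which overlapped. The log2 fold change of *Omd* was -0.03 (SE 0.20, 95% interval -0.55 to 0.49, adjusted p = 0.964), an interval that holds changes of the size seen in *Aspn*.

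*Lum* encodes lumican, a keratan sulfate proteoglycan of cornea and connective tissue. Its levels were 13.4, 11.6 and 8.43 CPM in control libraries and 11.1, 8.47 and 9.26 CPM in *Phf2* KO libraries. The groups overlapped. *Lum* had a log2 fold change of -0.21 (SE 0.16, 95% interval -0.57 to 0.14, adjusted p = 0.540). It was -0.06 without control replicate 1, -0.13 without *Phf2* KO replicate 2, -0.33 without *Phf2* KO replicate 1 and -0.38 without control replicate 3.

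*Podn*, the class V gene, encodes podocan, and its counts and listed TPM disagree as described. By counts its levels were 0, 0.172 and 0.189 CPM in control libraries and 0.260, 0.152 and 0.236 CPM in *Phf2* KO libraries. These values rest on at most 16 estimated counts in a library. Its log2 fold change of 0.84 (SE 0.92, 95% interval -1.13 to 2.81, adjusted p = 0.699) did not pass the test. The body of *Podn* overlaps *Scp2*, a lipid-carrier gene on the same strand at a mean of 100.7 CPM, with no shared exon.

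The members differed in how tightly the control libraries agreed. The coefficient of variation of CPM in control cells was 2.56% for *Aspn*, 3.33% for *Bgn* and 3.74% for *Ogn*. It was 11.5% for *Dcn*, 19.2% for *Omd*, 22.6% for *Lum*, 25.0% for *Prelp*, 48.9% for *Fmod* and, at few counts, 86.9% for *Podn*. The members differed less in *Phf2* KO cells. There the coefficient was 2.35% for *Aspn*, 2.79% for *Ogn*, 5.29% for *Bgn* and 5.31% for *Dcn*. It was 8.02% for *Prelp*, 11.5% for *Fmod*, 13.8% for *Lum*, 17.9% for *Omd* and 26.2% for *Podn*. Control replicate 3 was the highest control library for the chromosome 1 neighbours *Prelp* and *Fmod*, and the lowest for the chromosome 10 neighbours *Dcn* and *Lum*. The same library had the lowest summed myotube marker TPM of the control group (8612.5, against 9659.7 and 10157). The part of that difference in these genes was not tested.

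Counted over the list, 7 of the 9 genes had a positive and 2 a negative log2 fold change, where 49.8% of all genes tested were positive. The positive ones include *Podn*, at no more than 16 counts, and *Prelp* at 0.02, whose sign changed in 3 fits that left out a library. The negative ones include *Omd* at -0.03, whose sign changed in 2 such fits. The groups did not overlap, with *Phf2* KO higher, for 3 members (*Aspn*, *Ogn* and *Fmod*), compared with 12.9% of all genes tested (25.1% in either direction). At an unadjusted p under 0.05, 5 members were higher (*Aspn*, *Ogn*, *Dcn*, *Bgn* and *Fmod*), compared with 9.97% of all genes tested (19.4% in either direction). With the replicate block 3 members were called higher (*Aspn*, *Ogn* and *Dcn*), where 3.74% of all genes were. With DESeq2 4 were (these and *Fmod*), where 5.0% of the genes with an adjusted p were.

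**Figure D3:**
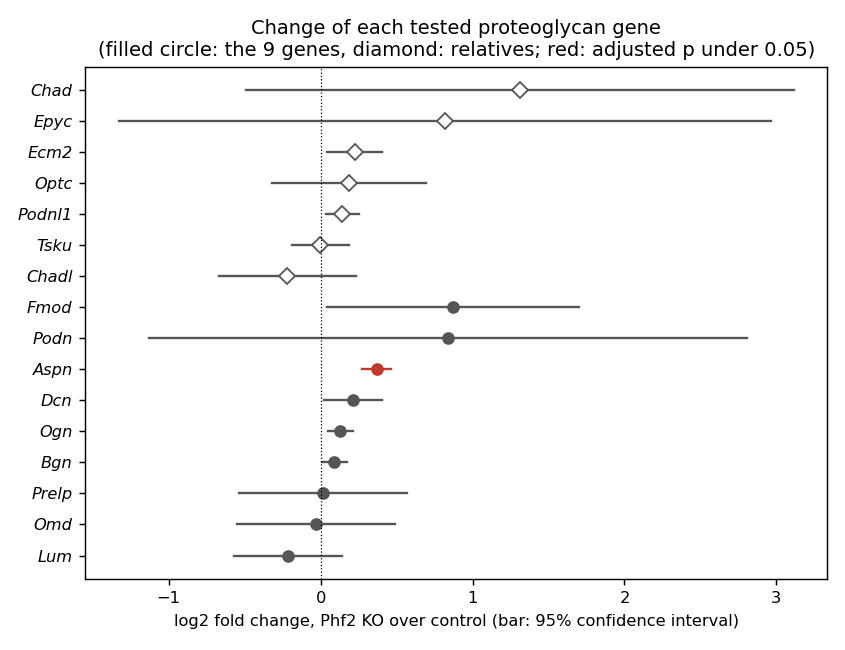
Log2 fold change (*Phf2* KO over control) of each of the 9 members and of the other family genes tested, (filled circles and open diamonds), with bars for the 95% confidence interval and red for an adjusted p under 0.05. Only *Aspn*, at 0.37, is red, and the bars of *Podn*, *Epyc* and *Chad* are the widest.

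The other 9 genes of the family were examined as a list. Of these, 7 were tested and 0 were called by edgeR, while 5 had a positive and 2 a negative log2 fold change and the median was 0.19. *Ecm2*, which lies beside *Aspn*, had a mean of 19.9 ± 1.75 CPM in control and 23.2 ± 0.758 CPM in *Phf2* KO cells (SD, n = 3). The groups did not overlap, and its log2 fold change was 0.22 (SE 0.084, adjusted p = 0.149). *Podnl1*, a relative of *Podn*, had a mean of 59.5 ± 2.11 and 65.7 ± 1.93 CPM without overlap, at a log2 fold change of 0.14 (SE 0.052, adjusted p = 0.131). With *Chad*, at low counts, these were the 3 of the 7 whose groups did not overlap, all higher in *Phf2* KO cells. Over all genes tested, 12.9% did not overlap with *Phf2* KO higher (25.1% in either direction).

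*Tsku* (tsukushi, a secreted inhibitor of BMP signaling) had 15.6 CPM in control and 15.5 CPM in *Phf2* KO cells, with a 95% interval of -0.19 to 0.18 for the log2 fold change. *Chadl* had 3.95 and 3.39 CPM (adjusted p = 0.645) and *Optc* (opticin, known from the eye) 1.96 and 2.23 CPM (adjusted p = 0.750). The remaining genes were near 0. *Chad* (chondroadherin, from cartilage) had estimated counts of 18, 0 and 14 in control and 35, 26 and 22 in *Phf2* KO libraries (adjusted p = 0.445). *Epyc* had at most 15 estimated counts in any library, and *Kera* and *Nyx*, with at most 14 each, were not tested.

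*Phf2* lies on the same chromosome as the *Aspn*, *Omd* and *Ogn* cluster, so the region around it was examined. The start of *Aspn* is 673.3 kb from *Phf2*, that of *Omd* 711.3 kb and that of *Ogn* 736.9 kb. Within 1 Mb, 20 genes other than *Phf2* were tested, of which 11 had a positive and 9 a negative log2 fold change, with a median of 0.02. *Aspn* was the only gene called higher. The genes *Card19* (-0.34, adjusted p = 0.0184), *Bicd2* (-0.27, adjusted p = 0.00234) and *Iars* (-0.33, adjusted p = 0.0012) were called lower, at 331.8, 470.5 and 811.0 kb from *Phf2*. The call of *Card19* was lost when *Phf2* KO replicate 3 (0.0842), control replicate 1 (0.0528) or control replicate 3 (0.064) was left out. *Bicd2* encodes a dynein adaptor and *Iars* a tRNA synthetase. Calls in both directions were thus present on this side of *Phf2*, where 6.48% of all genes tested were called in either direction.

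**Figure D4:**
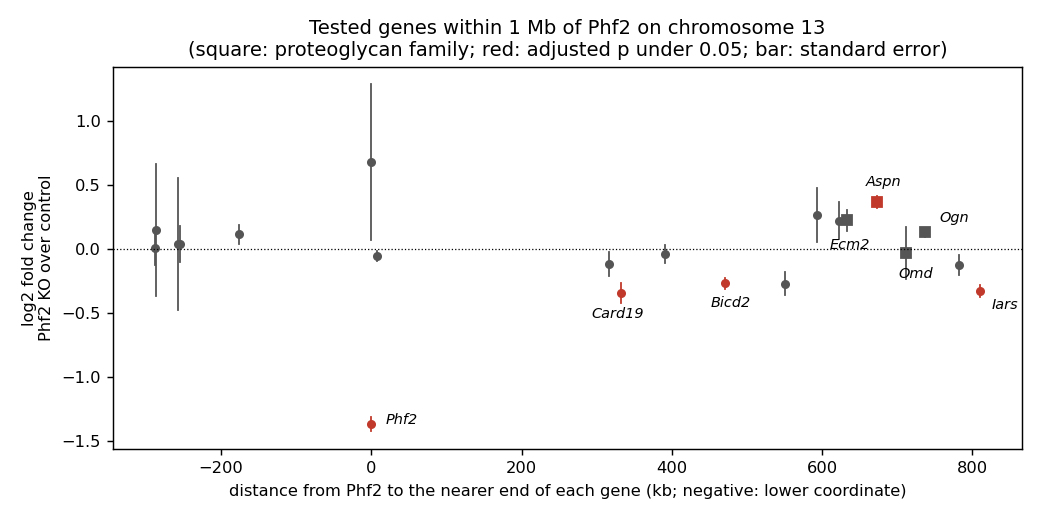
Log2 fold change with standard error of the genes tested within 1 Mb of *Phf2*, plotted against distance from *Phf2* in kb (squares: proteoglycan family, red: adjusted p under 0.05). *Aspn* at 673.3 kb is the red square above 0, with *Ecm2*, *Omd* and *Ogn* in grey around it.

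Whether *Aspn* moved more than its neighbours was tested within libraries, a comparison chosen after the values were seen. The difference in log2 CPM between *Aspn* and *Ogn* was -4.49, -4.48 and -4.52 in control and -4.25, -4.25 and -4.28 in *Phf2* KO libraries. The mean difference was higher by 0.24 in *Phf2* KO libraries, without overlap (two-sided exact permutation p = 0.1, the smallest that 3 against 3 libraries can give), and the SDs within groups were 0.021 and 0.018. The corresponding differences were 0.40 against *Omd* (exact p = 0.2) and 0.14 against *Ecm2* (exact p = 0.3), both with overlap. Adjusted over these 3 comparisons, each exact p was 0.3, and this test could not have passed 0.05 at this number of libraries. Between libraries of the same replicate number the change of *Aspn* exceeded that of *Ogn* by 0.25, 0.23 and 0.24. It exceeded that of *Omd* by 0.45, 0.45 and 0.29 and that of *Ecm2* by 0.07, 0.13 and 0.23. *Aspn* was set against its neighbours because it was the member called, so positive differences are partly fixed by that choice. No conclusion is drawn from them.

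*Aspn*, *Omd*, *Ogn* and *Ecm2* lie inside *Cenpp*, a centromere protein gene on the opposite strand. *Cenpp* had a mean of 2.67 CPM and a log2 fold change of 0.27 (adjusted p = 0.553). Its exons overlap those of *Aspn* only from 49558895 to 49558901. The nearest tested protein-coding gene on each side of the clusters was also read. *Btg1*, an antiproliferative gene 856.8 kb from *Dcn*, had 120.9 ± 9.24 CPM in control and 146.0 ± 7.59 CPM in *Phf2* KO cells (SD, n = 3). Its log2 fold change was 0.27 (adjusted p = 0.0129), a call lost when *Phf2* KO replicate 2 (0.0769), control replicate 1 (0.0749) or control replicate 2 (0.0716) was left out. The genes *Optc*, *Btg2*, *Epyc*, *Ecm2*, *Nol8*, *Haus7*, *Dusp9*, *Cpt2* and *Echdc2* did not pass the threshold.

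The most similar pattern over the 6 libraries to that of *Bgn*, the most abundant member, was found in *Bcorl1*, *Rps3a1* and *Furin*. Their Euclidean distances from *Bgn* in centred log2 CPM were 0.0518, 0.0534 and 0.0560, where the median of all genes tested was 0.358.

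The enzymes that build the sugar chains on these proteins were then examined. For the calls in these lists, the shares of all genes tested were 3.22% higher and 3.26% lower. Of 12 genes for the linker and its precursors, 11 were tested and 0 were called, with a median log2 fold change of 0.03 and a range of -0.24 to 0.15. Of 16 genes for chondroitin and dermatan sulfate, the chains of decorin and biglycan, 15 were tested, with a median of 0.04. *Chsy1*, a chondroitin synthase, was the only gene called, and it rose from 83.5 to 94.4 CPM (log2 fold change 0.18, adjusted p = 0.0352). The call of *Chsy1* was lost with each of the 6 libraries left out (adjusted p from 0.058 to 0.189). Of 8 genes for keratan sulfate, 6 were tested, 5 of them with a positive log2 fold change, and the median was 0.22. *Chst2*, a sulfotransferase, rose from 58.8 ± 3.13 to 75.7 ± 0.567 CPM (SD, n = 3), with a log2 fold change of 0.36 (adjusted p = 8.59e-04).

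The matrix proteins that bind these proteoglycans were examined next. Of 20 genes listed, 17 were tested, with a median log2 fold change of 0.12. In this list 7 were called higher and 3 lower, compared with 3.22% and 3.26% of all genes tested. Collagen VI genes, whose product binds decorin and biglycan, were among those that rose. *Col6a2* rose from 699.9 ± 46.2 to 955.8 ± 66.0 CPM (log2 fold change 0.45, adjusted p = 7.73e-04) and *Col6a1* from 1478 ± 105 to 1817 ± 128 CPM (0.30, adjusted p = 0.0209). The call of *Col6a1* was lost without control replicate 2 (0.067) or *Phf2* KO replicate 3 (0.102). *Col14a1* was called higher at a low level, 0.961 and 2.28 CPM (1.24, adjusted p = 0.0308). It kept the call only without control replicate 3, and with each other library left out its adjusted p was 0.0638 to 0.148.

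Among the genes called lower, *Dag1* and *Sgca* encode parts of the dystrophin-associated complex at the muscle membrane, to which biglycan binds. *Dag1* (dystroglycan) fell from 601.2 ± 13.9 to 470.3 ± 14.97 CPM (log2 fold change -0.35, adjusted p = 1.44e-04). *Sgca* fell from 20.7 to 16.3 CPM (-0.35, adjusted p = 0.0265), a call that held only without *Phf2* KO replicate 1 and was lost with each other library left out (up to 0.109). Muscle cells express both genes as they differentiate, and they were lower beside the lower summed level of myotube markers given earlier. The part of that in *Dag1* and *Sgca* was not tested.

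Ligands and receptors of the family were also measured. Of 17 listed, 14 were tested, with 4 called higher, 2 lower (3.22% and 3.26% of all genes tested) and a median log2 fold change of 0.11. *Tgfb2* rose from 98.6 to 124.4 CPM (0.34, adjusted p = 6.72e-04), *Bmp4* from 77.6 to 113.2 CPM (0.55, adjusted p = 0.00489) and *Lrp6* from 232.6 to 264.6 CPM (0.19, adjusted p = 0.0194). The call of *Lrp6* was lost when *Phf2* KO replicate 1 (0.0546), *Phf2* KO replicate 3 (0.0775), control replicate 2 (0.107) or control replicate 3 (0.07) was left out. *Tlr2*, an innate immune receptor that biglycan activates, rose from 15.9 to 22.4 CPM (0.50, adjusted p = 0.00271). *Musk*, the kinase of the neuromuscular junction to which biglycan binds, fell from 42.4 to 32.2 CPM (-0.40, adjusted p = 0.00107). *Mstn*, the gene of the decorin ligand myostatin, was not tested because of low counts.

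Of 12 genes for proteases and their enhancers that act on the family, 10 were tested, with a median log2 fold change of -0.0022. Among them 0 were called higher and 2 lower, compared with 3.22% and 3.26% of all genes tested. *Adamts4*, an aggrecanase that also cleaves decorin, fell from 110.3 to 88.6 CPM (-0.32, adjusted p = 0.00758). The call of *Adamts4* was lost without control replicate 2 (0.0592) or *Phf2* KO replicate 3 (0.053). *Tll1*, which encodes a protease of the BMP1 family, fell from 2.60 to 1.28 CPM (-1.02, adjusted p = 0.0319), a call that held only without control replicate 3 and was lost with each other library left out (up to 0.189). Proteoglycans outside the family, such as perlecan, syndecans and glypicans, had a median of -0.05 over 20 tested of 30 listed. Among these, *Gpc6* rose from 78.1 to 92.7 CPM (0.25, adjusted p = 0.0118) and *Col18a1* fell from 114.1 to 97.4 CPM (-0.23, adjusted p = 0.00773). These calls were lost without control replicate 2 for *Gpc6* (0.0841) and without *Phf2* KO replicate 2 for *Col18a1* (0.0551).

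**Figure D5:**
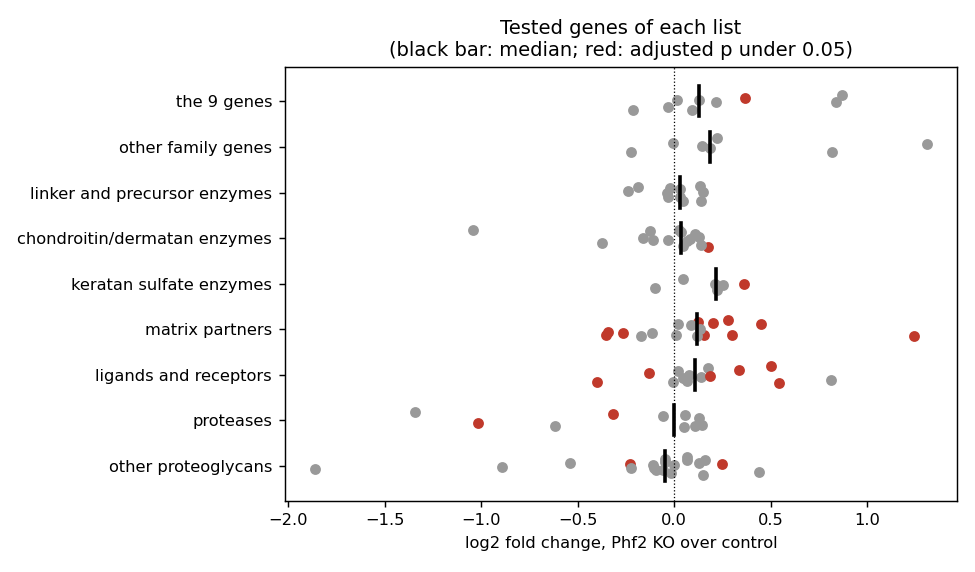
Log2 fold change (*Phf2* KO over control) of the tested genes in each list (points), with the list median as a black bar and red for an adjusted p under 0.05. The 9 members center on 0.13, the keratan sulfate enzymes on 0.22, and the matrix partners hold 7 red points above and 3 below 0. Over all genes tested, 3.22% were called higher and 3.26% lower.

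Marker genes of several cell types were then compared. All libraries came from the C2C12 line, so expression of a marker does not show that such a cell type was present. No list for unfused myoblasts was used. All 12 myotube markers had a negative log2 fold change, with a median of -0.39. Of these, 9 were called lower, where 3.26% of all genes tested were. *Mb* (myoglobin, -0.97), *Ckm* (creatine kinase, -0.78) and the fusion genes *Mymk* (-0.50) and *Mymx* (-0.47) were among them. Fibroblast markers had a summed TPM of 2932 to 3294 in control and 3108 to 3296 in *Phf2* KO libraries. Most of this sum was *Vim* (means of 2478 and 2659 TPM), which myoblasts also express. Of these 12 genes, 9 were tested, 3 with a positive and 6 with a negative log2 fold change and a median of -0.19. Among them 1 (*Dpt*, -0.90, adjusted p = 0.00737) was called lower, and *Thy1*, *Col15a1* and *Tcf21* had counts of 0 in all 6 libraries.

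Tendon, bone and cartilage markers had a summed TPM of 142 to 178 in control and 129 to 163 in *Phf2* KO libraries. Most of this sum was *Scx* (means of 114.7 and 94.4 TPM), which did not pass (log2 fold change -0.29, adjusted p = 0.17). Of the 12, 7 were tested, 3 with a positive and 4 with a negative log2 fold change and a median of -0.005. Only *Runx2* was called, higher (0.31, adjusted p = 0.00697), where 3.22% of all genes tested were called higher. *Ibsp* had counts of 0. The call of *Runx2* was lost without control replicate 2 (0.0597) or *Phf2* KO replicate 2 (0.0511). Endothelial and immune markers summed to 2.53 to 3.45 TPM over all libraries, and 1 of 8 was tested. Adipocyte markers summed to 35.6 to 46.2 TPM in control and 56.0 to 61.2 TPM in *Phf2* KO libraries. Most of this sum was *Cebpa* (means of 27.0 and 42.9 TPM). Of these 6, 4 were tested and 2 were called higher, where 3.22% of all genes tested were. These were *Cebpa* (0.65, adjusted p = 4.64e-04) and *Lpl* (0.34, adjusted p = 0.0332, up to 0.127 and lost with each library left out). *Pparg* (-0.05) and *Fabp4* (-0.75) had negative estimates and did not pass, *Adipoq* had at most 8 counts and *Plin1* had counts of 0. Myotube markers were thus lower in *Phf2* KO cells beside the higher *Aspn*, and their part in the result for *Aspn* was not tested.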

How the data were processed

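RNA sequencing of 6 libraries (3 control, 3 *Phf2* KO) was analysed. HISAT2 was used by the authors for alignment to mm10, and StringTie for an estimated count of each gene. Versions, annotation and the use of strand in counting are not given in the sources used here. The deposited matrix holds these estimated counts as whole numbers without scaling. Per-library tables, also deposited, give TPM as a signal normalized by the authors to the library, and coverage, which served only to examine the unit of the counts. Only rows of reference genes were read. Coordinates are those of GENCODE M21 (GRCm38), and promoter windows are from RefSeq, which held 7 of the 9 members.

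Counts were tested in R 4.3.3 with edgeR 4.0.16 by its quasi-likelihood test, after filterByExpr (minimum count 10), TMM scaling and robust dispersion estimation, with a prior count of 0.125. P-values were adjusted by Benjamini-Hochberg over 17310 genes, with a threshold of 0.05, and come from this test unless another is named. The common biological coefficient of variation was 0.135. Intervals are 95% t intervals from this fit. The procedure was also run on simulated counts, with the same variation for every gene, unpaired libraries and changes larger than that of *Aspn*. That run does not bear on changes of this size or on paired libraries. Figures were drawn with Python 3.11.15.

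Libraries with the same replicate number in their titles deviated alike. Across 10923 genes, deviations from the group mean correlated by 0.235, 0.258 and 0.168 between libraries with the same number and by at most -0.00193 between others. The negative values are partly fixed, because deviations within a group sum to 0. The authors' test had no block, so the block was an alternative, beside exactTest, DESeq2 1.42.0, limma 3.58.1 on log2(TPM + 1) and log2(TPM + 0.1), other filters and scalings, stricter thresholds and leaving out each library.

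Named were *Phf2*, all family genes, at most 5 called genes of each other list with the largest change, called genes within 1 Mb of *Phf2*, the nearest tested genes beside the clusters and the 3 genes most like *Bgn*. Named outside this rule, after their values were seen, were *Mstn*, *Cenpp*, *Scp2*, *Gm15851*, *Pparg*, *Fabp4*, *Adipoq* and marker genes with counts of 0. So were *Vim*, *Scx*, *Acta1*, *Actc1* and *Cebpa*, as parts of the sums of their lists. The members and lists were chosen with earlier results of these data known.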

Additional observations from a re-analysis of the deposited data

How the results depend on the processing

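The count of members called higher, 1 in the test reported, was 4 with DESeq2, 2 without a filter, 2 with a minimum of 1 CPM in 3 libraries, 2 with counts divided by 4, 3 with the replicate block and 0 with a fold change of at least 1.5. The share of all genes called in either direction, 6.48% in the test reported, was 9.78%, 4.15%, 9.4%, 9.08%, 7.6% and 1.32% in these settings. With each library left out the members called higher were 1 to 3, with 2 without control replicate 1 (4.29% of all genes called) and 3 without control replicate 3 (5.8%). All genes called ranged down to 0.91% with limma on log2(TPM + 1). The count of members called lower was 0 in each of these settings. *Aspn* passed in each of 13 other tests, filters and scalings (adjusted p from 2.88e-10 to 0.0254, log2 fold change 0.36 to 0.38). *Ogn* passed in 5 of the 13 (0.0155 to 0.533), *Dcn* in 2 (0.0138 to 0.402) and *Fmod* in 1, DESeq2 (0.00852, up to 0.413). *Bgn* passed in none. The block changed no other member's call. Of 29 called genes that the naming rule gave, *Phf2* and *Btg1* aside, limma on log2(TPM + 1) lost 21, limma on log2(TPM + 0.1) 19, limma-voom 4, exactTest 1, exactTest without a filter 2, no filter 1, an adjusted p under 0.01 10 and a fold change of at least 1.5 23. Leaving out a library lost 5 to 10 of them.

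Some estimates near 0 changed sign. With each library left out, *Omd* ranged from -0.15 to 0.13, *Prelp* from -0.11 to 0.24 and *Tsku* from -0.033 to 0.018 in log2 fold change. By limma on log2(TPM + 1) and log2(TPM + 0.1), that of *Tsku* was 0.038 and 0.04. Changes of *Podn* (by its counts), *Chad*, *Epyc*, *Kera* and *Nyx* were limited by low counts. The causes of these differences were not tested.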
